A study of Mus musculus with 12 samples.

Results

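Sox1, Sox2, Sox3, Sox9, Sox21, Pax6, Fabp7, Nes and Vim are 9 genes that radial glia and other neural progenitor cells are known to express. The set was proposed with earlier results of these data known, so counts over it are a description. The genes were taken by gene symbol from the expression tables of mouse motoneuron cultures and are 9 of the 39174 gene identifiers in the tables. The filter on low values asked for 1 FPKM or more in any 3 of the 12 libraries. All 9 passed it, together with 15105 other genes, 15114 in all. FPKM expresses the sequenced fragments of a gene relative to transcript length and library depth. The cultures were primary motoneurons of mice of the FVB strain, and the labels state no age. Every group carries the human SMN2 transgene. The 2 genotypes are Smn+/+;SMN2, called control here, and Smn-/-;SMN2, a mouse model of spinal muscular atrophy called SMA here, in which the mouse Smn gene is lost and SMN2 is the remaining source of the SMN protein. Each genotype was left untreated or received R-Roscovitine at 0.5 µM, which makes 4 groups of 3 libraries. R-Roscovitine is known as a compound that blocks cyclin-dependent kinases. The study asked about this compound in mouse models of the disease.

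Radial glia are the stem-like cells that line the ventricles of the developing brain and spinal cord. They divide there, guide migrating neurons with their long processes, and give rise first to neurons and later to astrocytes and oligodendrocyte precursors. Sox1, Sox2 and Sox3 are the SoxB1 transcription factors, which keep progenitors undifferentiated. Sox21 is a SoxB2 factor that counteracts them and promotes neuronal differentiation. Sox9, a SoxE factor, drives the switch from neuron to glia production, and Pax6 patterns the progenitor domains of the ventral spinal cord and of the cortex. Fabp7 encodes the brain lipid binding protein of radial glia. Nes and Vim encode the intermediate filaments nestin and vimentin, and vimentin is also made by fibroblasts and many other cells. Primary motoneurons are usually prepared from the embryonic ventral spinal cord, where progenitors and glial precursors lie beside the neurons.

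Smn1, the targeted gene, was at 30.9, 41.2 and 51.2 FPKM in the untreated control libraries and 38.2 to 45.1 in the treated ones, against 5.04 to 8.58 in the 6 SMA libraries. Depth was estimated only roughly, from the smallest step between low values, which 29.2% to 31.4% of the low values followed. It came to 19.5 to 28.7 M reads per library, with the SMA libraries at 19.5 to 25.2 and the control libraries at 23.3 to 28.7. Between 14463 and 14581 genes reached an FPKM of 1. The labels do not state that libraries of one group are separate cultures or animals. The p-values therefore measure only the spread between these libraries, which may be technical. Of 9 motoneuron markers in the tables, 2 passed the filter. Chat, the enzyme that makes acetylcholine, did not exceed 0.061 FPKM in any library, and Mnx1, which defines motoneurons, was listed at 0 in all of them. Isl1 reached at most 0.845 FPKM and Lhx3 0.669, while all 12 general neuron markers passed the filter. The 2 motoneuron markers that passed were Prph, a peripheral neuron filament, at most 1.71 FPKM, and Chodl, a marker of fast motoneurons. Chodl was at 11.8 ± 5.66 FPKM in untreated control and 4.57 ± 1.45 in untreated SMA libraries (SD, n = 3 each). Its averaged log2 difference was -1.08 ± 0.30 (SE; adjusted p = 0.194 in limma). In libraries labelled as motoneurons, Chat and Mnx1 were thus at or near 0 and Chodl was present.

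In level, the 9 genes spanned a wide range, with the transcription factors lowest. Averaged over 12 libraries, Vim stood at 2820 FPKM, above 99.9% of the tested genes, and Fabp7 followed at 343 FPKM. Nes averaged 55.0 FPKM, Pax6 44.1, Sox2 23.3, Sox9 19.2, Sox1 18.1, Sox3 11.5 and Sox21 8.58. FPKM is per length of transcript, so these levels can be set beside each other roughly. Sox1, Sox2, Sox21 and Pax6 may share reads with overlapping genes, described below. Vim exceeded Fabp7, Fabp7 exceeded Nes, and Pax6 exceeded Sox2 in all 12 libraries. The other neighbours changed places in some: Nes was above Pax6 in 10 libraries, Sox2 above Sox9 in 11, Sox9 above Sox1 in 9, Sox1 above Sox3 in 11 and Sox3 above Sox21 in 10. The spread between libraries of a group, a coefficient of variation of 5.57% to 53.3%, was mostly wider than the interval that Cufflinks gives each value, which extended 2.57% to 13.2% of the value to each side and covers counting and assignment only.

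Sox1, Sox2, Sox3, Sox9, Sox21 and Fabp7 had higher means in SMA than in control libraries, by 1.39-fold to 2.64-fold without treatment and by 1.48-fold to 2.11-fold with it. Pax6, Nes and Vim lay within 0.899-fold to 1.20-fold. No gene of the 9 passed the test at an adjusted p of 0.05 in any of the 3 genotype comparisons (limma, Benjamini-Hochberg adjustment over 15114 genes). The background in each of these was 0.00662% of genes called, which is 1 gene, Smn1. At an unadjusted p under 0.05, 6 of the 9 were higher in SMA without treatment, where 7.13% of all tested genes were. With treatment the numbers were 6 of 9 and 7.96%, and averaged over treatments 6 of 9 and 8.61%. They were the 6 genes named above in all 3 comparisons.

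**Figure D1:**
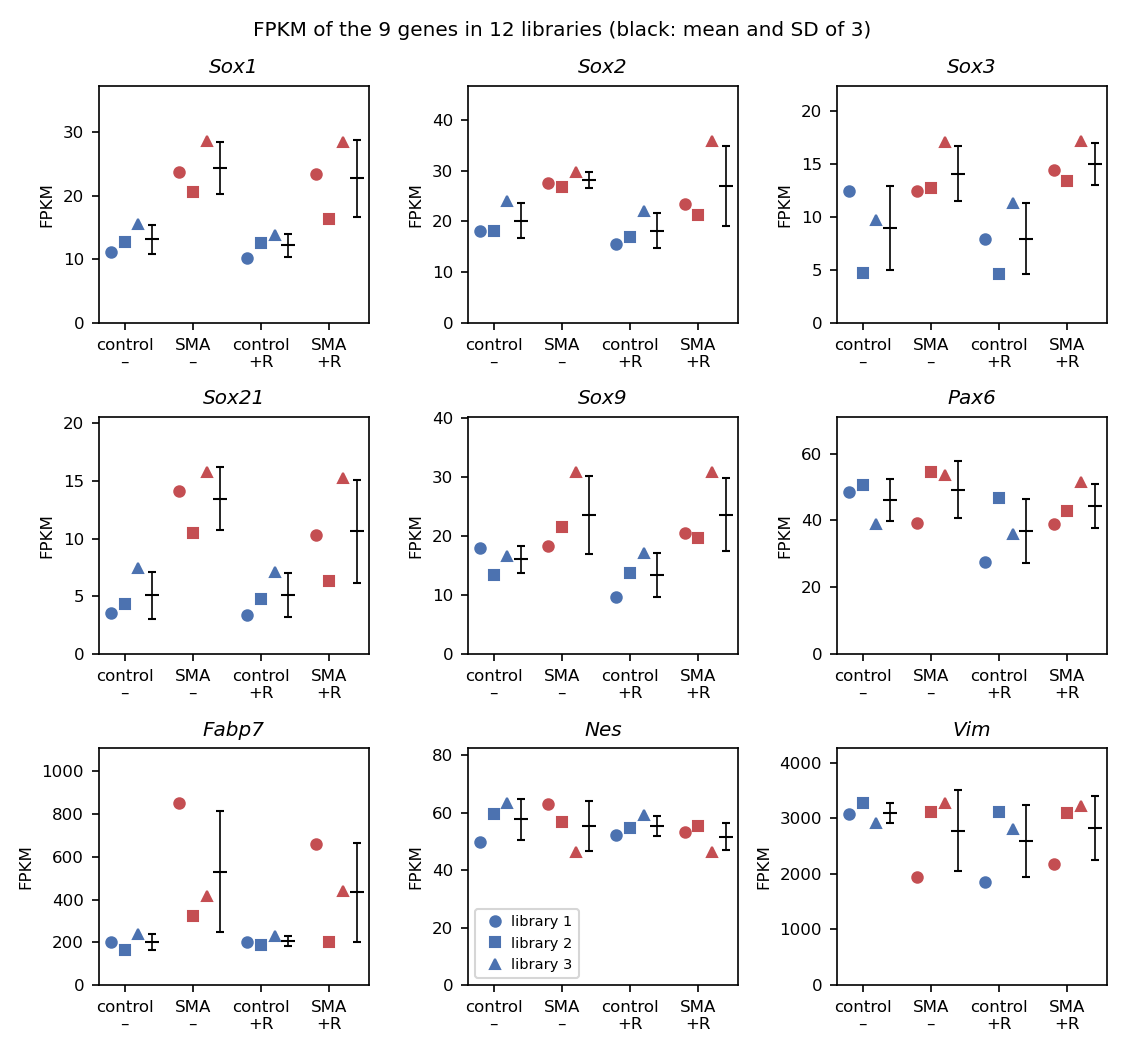
FPKM of each of the 9 genes (vertical axes, linear, from 0) in the 4 groups, untreated (–) or with R-Roscovitine (+R). Symbols are library numbers 1 to 3, blue is control and red SMA, and the black bar is the mean with the SD of 3 libraries. Sox1 separates the genotypes in both treatments, with SMA libraries at 16.4 FPKM or more and control libraries at 15.6 or less, while Nes overlaps throughout.

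Sox1, the SoxB1 factor that marks the neural plate and dividing progenitors, stood in untreated control libraries at 11.2, 12.7 and 15.6 FPKM and in untreated SMA libraries at 23.7, 20.6 and 28.7. With R-Roscovitine it stood at 10.2, 12.5 and 13.9 FPKM in control and at 23.4, 16.4 and 28.4 in SMA. Every SMA library was above every control library of the same treatment, and also of the other. The group means were 13.2 ± 2.24 and 24.3 ± 4.10 FPKM without treatment, and 12.2 ± 1.85 and 22.7 ± 6.07 with it (SD, n = 3 each). On the log2(scaled FPKM + 1) scale on which the test was run, the averaged difference was 0.86 ± 0.18 (SE; 95% interval 0.45 to 1.27, adjusted p = 0.177 in limma). This scale understates the change of genes at low levels. The gene is a single exon on chromosome 8, 12395295 to 12400126 of GRCm38, plus strand.

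Sox2, the SoxB1 factor that neural stem cells of all ages share, was at 18.2, 18.2 and 24.1 FPKM in untreated control and at 27.6, 26.8 and 29.8 in untreated SMA libraries. The groups did not overlap without treatment. With R-Roscovitine, 15.5, 17.0 and 22.1 FPKM in control stood beside 23.5, 21.3 and 35.9 in SMA, and the lowest SMA library was below the highest control library. Averaged over treatments, the log2 difference was 0.52 ± 0.16 (SE; 0.16 to 0.89, adjusted p = 0.208 in limma), the smallest of the 4 SoxB genes. Sox2 is a single exon too, on chromosome 3, 34650005 to 34652461, plus strand.

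Sox3, the X-linked SoxB1 factor, was the most variable of the 3 in control libraries, with 12.5, 4.70 and 9.71 FPKM untreated and 7.89, 4.64 and 11.3 treated. The untreated SMA libraries had 12.4, 12.7 and 17.1 FPKM and the treated ones 14.4, 13.4 and 17.2. Control library 2 was low with and without treatment. The genotypes did not overlap with treatment, and without it control library 1 lay at 12.5, just above the lowest SMA library. On the log2 scale the averaged difference was 0.81 ± 0.25 (SE; 0.25 to 1.38, adjusted p = 0.210 in limma), and 0.50 without both libraries of control number 2. The single-exon gene lies on chromosome X, 60891370 to 60893430, minus strand.

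Sox21, the SoxB2 antagonist, had the lowest level of the 9 and one of the 2 largest genotype differences. Untreated control libraries had 3.59, 4.32 and 7.42 FPKM and untreated SMA libraries 14.1, 10.5 and 15.8, a ratio of means of 2.64. Every untreated SMA library exceeded every untreated control library. With R-Roscovitine the control libraries had 3.38, 4.74 and 7.14 FPKM and the SMA libraries 10.3, 6.36 and 15.2. Here SMA library 2, at 6.36, lay below the highest control library. The averaged log2 difference was 1.12 ± 0.27 (SE; 0.51 to 1.73, adjusted p = 0.182 in limma). The gene lies on chromosome 14, 118233232 to 118237030, minus strand, in 1 exon. The SoxB1 factors and the factor that opposes them thus had higher means in the same genotype.

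Sox9, the factor of glial specification, was at 18.0, 13.5 and 16.7 FPKM in untreated control and 18.3, 21.5 and 30.9 in untreated SMA libraries. With treatment it was at 9.62, 13.7 and 17.1 FPKM in control and at 20.5, 19.6 and 30.8 in SMA. SMA libraries were all above control libraries in both treatments, with a narrow gap of 18.0 to 18.3 FPKM without treatment. Averaged over treatments, the log2 difference was 0.67 ± 0.18 (SE; 0.26 to 1.08, adjusted p = 0.194 in limma). SMA library 3 was the highest in both treatments. The 3-exon gene lies on chromosome 11, 112782224 to 112787760, plus strand.

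Pax6, which sets the borders of progenitor domains and stays on in some neurons, overlapped between genotypes. It was at 48.5, 50.7 and 38.9 FPKM in untreated control and 39.3, 54.6 and 53.6 in untreated SMA libraries. With R-Roscovitine the values were 27.7, 46.8 and 36.0 FPKM in control and 38.8, 42.7 and 51.4 in SMA. On the log2 scale the averaged difference was 0.21 ± 0.15 (SE; -0.14 to 0.56, adjusted p = 0.538 in limma), an interval that holds both no difference and one as large as that of Sox2. Its locus on chromosome 2 spans 105668900 to 105697364, plus strand, with 26 annotated transcripts of 2 to 14 exons, which the gene-level FPKM joins.

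Fabp7, the lipid binding protein of radial glia and a known target of Notch signalling and of Pax6, had the widest spread of the 9 and, with Sox21, one of the 2 largest differences. Untreated control libraries had 202, 165 and 240.3 FPKM, and untreated SMA libraries 854, 324 and 416. The lowest untreated SMA library exceeded the highest control library. With treatment the control libraries had 201, 185 and 231 FPKM and the SMA libraries 660, 200.5 and 439, so that treated SMA library 2 lay among the controls. Within SMA the coefficient of variation was 53.3% without and 53.0% with treatment, against 18.5% and 11.5% in control. SMA library 1 was the highest in both treatments. The averaged log2 difference was 1.13 ± 0.34 (SE; 0.36 to 1.89, adjusted p = 0.206 in limma). It was 0.72 without both libraries of SMA number 1 and 1.52 without both of SMA number 2. The gene lies on chromosome 10, 57784881 to 57788450, plus strand.

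Nes, the nestin filament that marks neural progenitors in most protocols, gave no such pattern. Untreated libraries had 49.9, 59.6 and 63.5 FPKM in control and 63.1, 56.9 and 46.2 in SMA. Treated libraries had 52.1, 54.7 and 59.2 FPKM in control and 53.2, 55.4 and 46.3 in SMA. Averaged over treatments, the log2 difference was -0.052 ± 0.12 (SE; -0.33 to 0.23, adjusted p = 0.875 in limma), so differences as large as the estimates for Sox1, Sox21 or Fabp7 lie outside the interval. The gene lies on chromosome 3, 87971078 to 87980451, plus strand. The ratio of Sox1 to Nes within each library, looked at after both values were known, was 0.197 to 0.245 in the 6 control libraries and 0.295 to 0.621 in the 6 SMA libraries.

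Vim, the vimentin filament, was at 3075, 3271 and 2916 FPKM in untreated control and at 1933, 3119 and 3278 in untreated SMA libraries. Treated control libraries had 1852, 3103 and 2803 FPKM and treated SMA libraries 2172, 3091 and 3221. The groups overlapped in both treatments, and the lowest values were those of number 1 in 3 of the 4 groups. The averaged log2 difference was 0.0051 ± 0.18 (SE; -0.40 to 0.41, adjusted p = 0.993 in limma). Under a common FPKM sum, no scaling and quantile normalization it was -0.074, -0.024 and -0.055. The gene lies on chromosome 2, 13573927 to 13582826, plus strand.

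**Figure D2:**
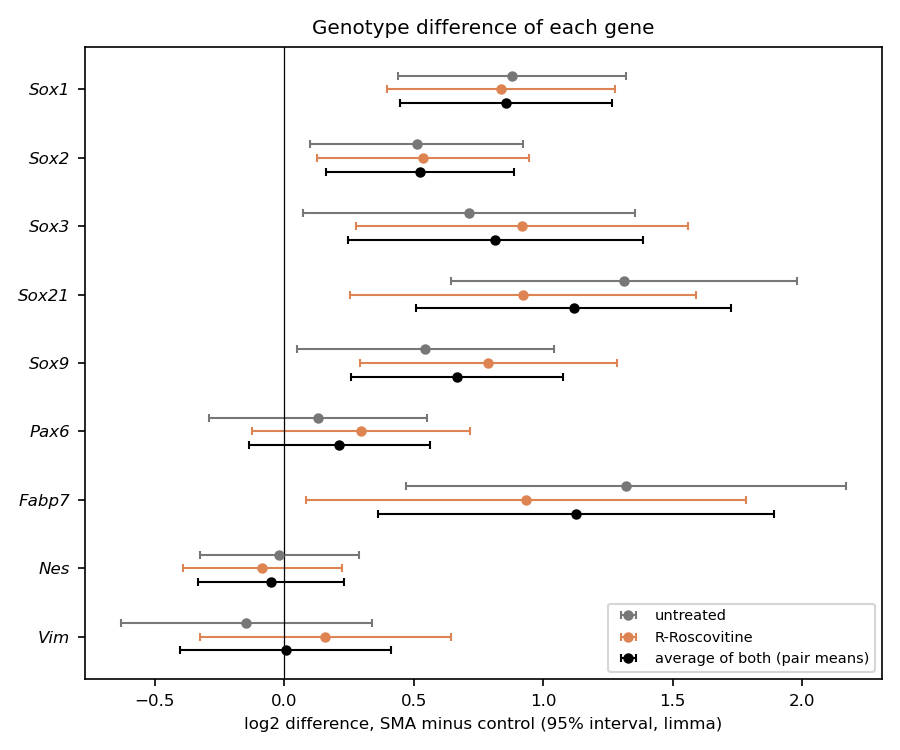
Difference between SMA and control for each gene on the log2(scaled FPKM + 1) scale (horizontal axis), untreated (grey), with R-Roscovitine (orange) and averaged over both from 6 means of number-matched libraries (black). Bars are 95% intervals from limma. In all 3 comparisons the intervals of Sox1, Sox2, Sox3, Sox9, Sox21 and Fabp7 lie above 0, without adjustment for the number of genes tested, and those of Pax6, Nes and Vim hold 0.

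The averaged comparison used the mean of each untreated library and the treated library of the same genotype and number, because such libraries deviated together. With all 12 libraries counted as independent, which leaves that sharing out, 6 of the 9 genes passed at an adjusted p under 0.05 and all 6 were higher in SMA. The background was 668 of 15114 genes, or 4.42%, with 2.79% higher and 1.63% lower in SMA. Their adjusted p in limma were 0.019 for Sox1, 0.023 for Sox21, 0.040 for Sox9, 0.041 for Fabp7, 0.046 for Sox2 and 0.047 for Sox3. The calls thus depended on whether number-matched libraries were taken as separate measurements, and other settings, given here and in the closing section, changed them too. The median log2 difference over the 9 genes was 0.55 untreated, 0.79 treated and 0.67 averaged, where the median over all tested genes was -0.0060, -0.018 and -0.0095. Without the SMA libraries of number 2, 3 of the 9 genes passed in the averaged comparison (Sox1, Sox21 and Fabp7), among 264 genes called. Without the treated SMA library 2 alone, 205 genes passed in the treated comparison, with Sox1 the only one of the 9.

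The separation of the libraries was also counted, in FPKM and without a model. Without treatment, 5 of the 9 genes (Sox1, Sox2, Sox9, Sox21 and Fabp7) had every SMA library above every control library, against 7.83% of tested genes. With treatment there were 3 of 9 (Sox1, Sox3 and Sox9), against 8.9%. Sox1 and Sox9 were separated in both treatments, 2 of 9 against 2.46%. Bulk RNA cannot tell a larger share of cells of a type from more RNA per cell, and this holds for each level given here.

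R-Roscovitine gave no called gene among the 9 or among all genes, in control (0% of 15114), in SMA (0%) or in the difference between the 2 (0%). At an unadjusted p under 0.05 in limma there were 205 genes in control, 377 in SMA and 310 in the interaction, none of them among the 9. The median change over the 9 genes was -0.11 on the log2 scale in control and -0.09 in SMA. In SMA, Sox21 was lower after treatment in all 3 pairs, with FPKM differences of -27.1%, -39.4% and -3.61% in pairs 1, 2 and 3. Its mean log2 change was -0.37 ± 0.31 (SE; adjusted p = 0.999 in limma), and -0.37 ± 0.13 with the 6 pairs as blocks (unadjusted p = 0.017, adjusted p = 0.654 in limma). Fabp7 in SMA differed by -22.7% and -38.1% in pairs 1 and 2, and by 5.60% in the third. Its mean log2 change was -0.33 ± 0.39 (SE), and -0.33 ± 0.13 with pairs as blocks (unadjusted p = 0.036, adjusted p = 0.666 in limma). With pairs as blocks, 1115 of 15114 genes had an unadjusted p under 0.05 for treatment in SMA in limma. These 2 were the only ones of the 9, and 0 genes were called. In control, the same 2 genes differed by at most 12.1% between the libraries of a pair.

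**Figure D3:**
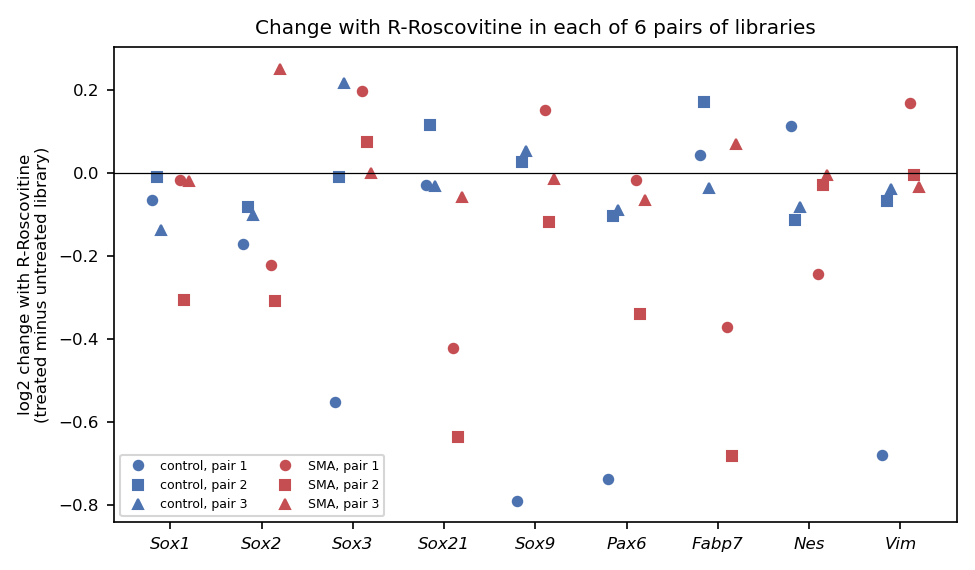
Change with R-Roscovitine of each gene in each of 6 pairs of libraries of the same genotype and number (vertical axis, treated minus untreated, log2 of scaled FPKM + 1). Blue is control, red is SMA, and the symbols are pair numbers. Most points lie near 0, and the low blue points of Sox3, Sox9, Pax6 and Vim all belong to control pair 1.

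A single pair stood out in control. In pair 1, the FPKM of the treated library differed from that of the untreated one by -36.8% in Sox3, -46.6% in Sox9, -42.9% in Pax6 and -39.8% in Vim. In pairs 2 and 3 the differences of these 4 genes lay between -7.67% and 2.68%, apart from 16.6% in Sox3 in pair 3. For Pax6, which was lower in all 3 control pairs and all 3 SMA pairs, the mean log2 change in control was -0.31 ± 0.19 (SE; adjusted p = 0.9997 in limma), and -0.12 without the treated control library 1. The scale factor of that library was 1.01, and the FPKM are unscaled. Sox1 was also lower in all 6 pairs, with differences of -20.4% to -0.855%. Sox3 went the other way in SMA, higher in all 3 pairs, and was lower in 2 of the 3 control pairs. How many of all tested genes kept a direction over the pairs was not counted. For the interaction, the difference between the genotypes in their response, Sox21 had -0.39 ± 0.44 (SE) and Fabp7 -0.39 ± 0.56 (adjusted p = 0.999997 each in limma). The fit without pairs bounded the effect of R-Roscovitine only loosely. Its 95% interval for Fabp7 in SMA ran from -1.18 to 0.52 and that for Sox21 from -1.04 to 0.30. With pairs as blocks the SE of both, given above, was smaller.

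Over the 12 libraries, the median of the 9 centred log2 profiles put all 6 SMA libraries above all 6 control libraries. It was highest in SMA library 3, at 0.64 treated and 0.50 untreated, and lowest in the treated control library 1, at -0.59. The treated SMA library 2 was at -0.03 and the treated control library 3, next below it, at -0.10. Sox2 lay closest to this median profile, with a root mean square difference of 0.099 on the log2 scale, followed by Sox9 at 0.133 and Sox1 at 0.192. Nes and Fabp7 lay farthest, at 0.427 and 0.548. Among 15105 other tested genes, whose median distance was 0.409, the 5 nearest were Man1c1 at 0.070, Atp2b4 at 0.086, Zbtb18 at 0.098, Frem2 at 0.101 and Vangl2 at 0.101. Zbtb18 encodes a transcriptional repressor of the developing brain, Atp2b4 a calcium pump of the plasma membrane, Man1c1 a Golgi mannosidase, and Vangl2 a planar cell polarity protein. Zbtb18 was at 13.6 ± 1.40 FPKM in untreated control and 19.0 ± 0.799 in untreated SMA libraries, and Vangl2 at 18.5 ± 1.45 and 26.4 ± 4.75 (SD, n = 3 each). The 5 genes were picked for their likeness to this profile, so their higher means in SMA follow from the choice.

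**Figure D4:**
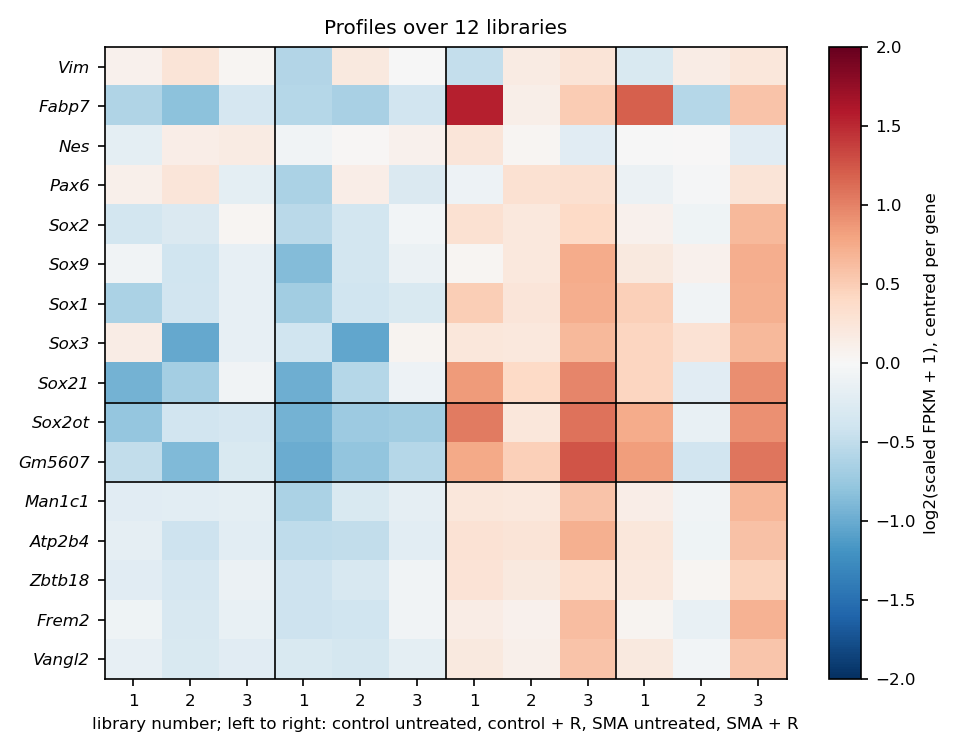
Centred log2(scaled FPKM + 1) of the 9 genes in order of level (top), 2 long RNAs that overlap Sox2 and Sox1 (middle) and the 5 genes nearest to the median profile of the 9 (bottom) in 12 libraries; red is above and blue below the gene's own mean, and colours end at 2 on either side. The SMA side is mostly red in the Sox genes. It is pale in untreated SMA library 1 of Sox9 and treated SMA library 1 of Sox2. Treated SMA library 2 is pale or blue in Sox1, Sox2, Sox9 and Sox21. Fabp7 is darkest in the SMA libraries of number 1.

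Sox2ot, a long noncoding RNA in whose locus Sox2 lies, was at 4.34, 5.75 and 6.16 FPKM in untreated control and 16.8, 9.48 and 17.6 in untreated SMA libraries. Treated libraries had 3.60, 4.27 and 4.55 FPKM in control and 13.4, 7.05 and 15.6 in SMA. SMA libraries were all above control libraries in both treatments, and the averaged log2 difference was 1.29 ± 0.24 (SE; adjusted p = 0.173 in limma), larger than that of Sox2 itself. Gm5607, annotated on the same strand across Sox1, was at 1.42, 0.778 and 1.74 FPKM in untreated control and 4.47, 3.64 and 6.85 in untreated SMA libraries, with an averaged difference of 1.34 ± 0.27 (SE; adjusted p = 0.176 in limma). How reads were divided between overlapping genes is not stated, so the members of each pair may share reads. Gm4675, on the strand opposite Sox21, had 0.33 ± 0.20 (SE; adjusted p = 0.453 in limma), and Elp4, which meets the end of Pax6 on the opposite strand, had 0.26 ± 0.15 (SE; adjusted p = 0.448 in limma). Whether reads were assigned by strand is not stated either.

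The sequence before the start site was read from RefSeq for 7 of the 9 genes (mouse GRCm38.p6). Sox2 and Fabp7 are shown as a transcription factor and a radial glia protein with higher means in SMA, and Nes as a progenitor gene without a difference. All are on the plus strand, printed 5′ to 3′, and end before the first annotated exon base. Sox2 is chr3:34649745-34649994, Fabp7 chr10:57784673-57784880 and Nes chr3:87970843-87971077. Capitals mark matches on either strand to 5 motifs. The TATA box was searched as TATAAA and the CCAAT box by its name. The GC box was searched as GGGCGG. The core bound by RBPJ, the DNA binding partner of Notch, was searched as TGGGAA. The core bound by SOX factors was searched as ACAAT, and CCAAT and ACAAT can overlap.
Sox2: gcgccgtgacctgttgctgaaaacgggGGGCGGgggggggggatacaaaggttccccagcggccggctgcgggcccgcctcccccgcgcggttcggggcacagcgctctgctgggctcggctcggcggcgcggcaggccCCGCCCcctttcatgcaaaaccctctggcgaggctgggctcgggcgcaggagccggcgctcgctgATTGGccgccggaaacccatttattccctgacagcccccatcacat
Fabp7: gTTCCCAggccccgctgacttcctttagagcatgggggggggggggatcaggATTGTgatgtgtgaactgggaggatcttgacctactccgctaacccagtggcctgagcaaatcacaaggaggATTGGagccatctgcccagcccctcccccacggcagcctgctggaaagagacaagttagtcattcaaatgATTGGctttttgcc
Nes: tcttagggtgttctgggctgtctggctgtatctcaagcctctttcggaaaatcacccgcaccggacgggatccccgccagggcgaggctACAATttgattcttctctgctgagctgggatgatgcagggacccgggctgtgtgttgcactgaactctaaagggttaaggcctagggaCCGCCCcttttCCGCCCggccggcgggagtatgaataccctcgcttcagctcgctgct

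In the 250 bases before the RefSeq start, Sox2 held 27 CpG and Sox1 29, where the median over 32851 mouse promoters was 6. Sox21 had 17, Pax6 15 at each of its 2 start sites, Nes 15, Vim 8 and Fabp7 4. Fabp7 was thus the one CpG-poor promoter among the 7 read. It held 2 CCAAT boxes, 1 RBPJ core and 1 SOX core, which 33.8%, 21.6% and 27.7% of all promoters hold at least once. Sox2 and Sox1 each held 1 CCAAT box and GC boxes, 2 and 3 of them (32.7% of all promoters hold one), and Nes held 2 GC boxes and 1 SOX core. Vim was alone in holding a TATA box (12.4% of all promoters), and Sox21 held none of the 5. No motif was shared by all of Sox1, Sox2, Sox21 and Fabp7, the 4 genes with a higher mean in SMA whose promoters were read. A match describes these letters and no binding. Unlike the printed sequences, the windows counted here were not cut at annotated exons. The Vim window, 13574061 to 13574310, lies within the annotated gene, which starts at 13573927. Most of the Sox1 window, 12395269 to 12395518, lies in its exon, which starts at 12395295. The counts of these genes thus include annotated gene sequence.

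Other genes of the same cells and pathways were taken from lists. Of 39 further progenitor and radial glia genes, 31 were tested. None passed in a genotype comparison in limma; at an unadjusted p under 0.05, 20 were higher and 1 lower in the averaged one, where 8.61% of all genes were higher. In SMA 26 of 31 were higher on average, where 7314 of all 15114 tested genes were, and their median log2 difference was 0.64. With 12 libraries counted as independent, 14 passed as higher and 0 as lower (2.79% and 1.63% of all genes did). Ptch1, the Hedgehog receptor and target, was at 15.4 FPKM in untreated control and 36.0 in untreated SMA libraries. Notch1 was at 24.1 and 42.3 FPKM, Slc1a3, the glutamate transporter of radial glia and astrocytes, at 42.0 and 80.2, and Foxj1, which drives motile cilia, at 22.0 and 29.7. The averaged adjusted p of each was 0.173 to 0.177 in limma. Hes1, a Notch target, had a log2 difference of -0.026, and Hes5, another, was at 0.243 and 1.62 FPKM with a difference of 0.89. Tnc, a matrix protein of radial glia, was at 187.7 FPKM in untreated control and 114.4 in untreated SMA libraries. Among 8 tested of 15 other Sox genes, 7 were higher with a median of 0.32. Sox8, the SoxE relative of Sox9, was at 4.60 and 9.48 FPKM and the one of them that passed as higher with 12 libraries counted as independent (adjusted p = 0.019 in limma, 2.79% of all genes). Of 14 partners and regulators of the SoxB1 factors, 11 were tested, 8 were higher, and 4 passed as higher in that same count (2.79% of all genes): Pou3f2 (3.45 and 8.22 FPKM without treatment), Pou3f3 (13.0 and 19.0), Pou2f1 (6.75 and 9.09) and Chd7 (2.61 and 3.19).

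Of 11 tested intermediate filament genes other than Nes and Vim, 3 were higher in SMA and the median was -0.13. Gfap, the astrocyte filament, was at 0.273 FPKM in untreated control and 2.11 in untreated SMA libraries, and Ina, a neuronal filament, at 91.2 and 53.9. Of 9 other fatty acid binding protein genes 2 were tested, and Fabp5 was at 32.8 FPKM in both untreated groups. Of 8 other Pax genes 3 were tested and 0 were higher, among them Pax2, which marks interneurons, at 18.4 and 10.1 FPKM. All 18 proliferation genes were tested, and their median difference was 0.11 with 15 higher. Mki67 was at 67.0 and 82.5 FPKM, while Ccnd1, cyclin D1, was at 122.8 and 50.0 and passed as lower with 12 libraries counted as independent (adjusted p = 0.039 in limma, 1.63% of all genes).

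**Figure D5:**
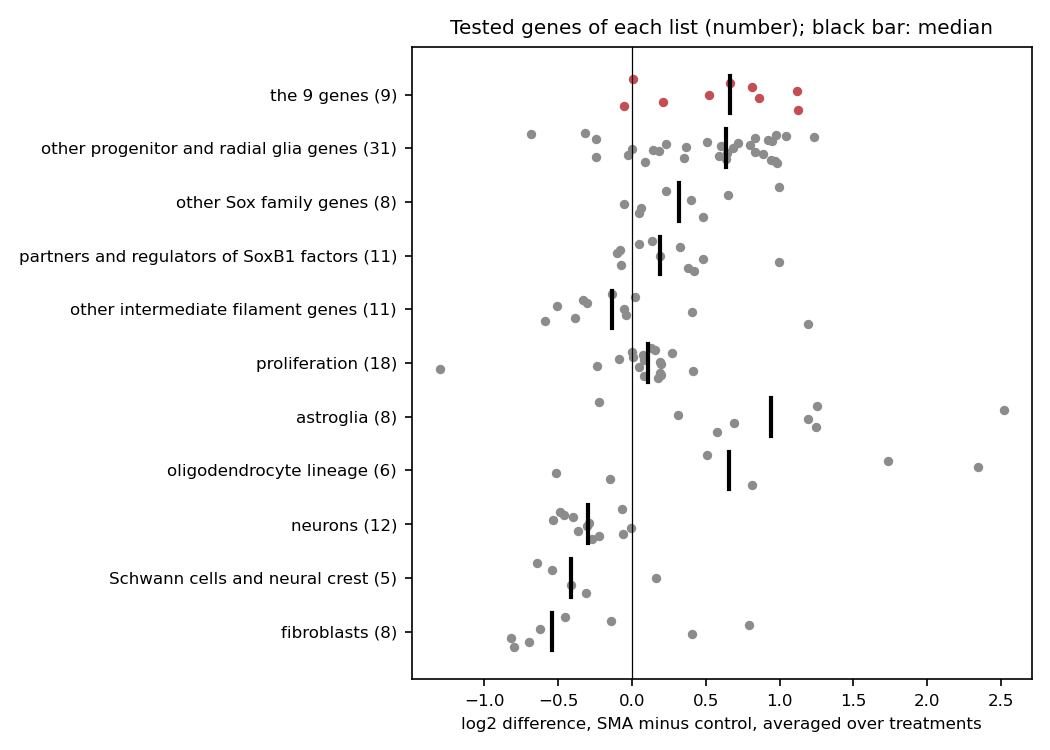
Log2 difference between SMA and control, averaged over treatments (horizontal axis), of each tested gene in the 9-gene set (red) and in 10 gene lists (grey); the number of tested genes is in parentheses and the black bar is the list's median. Medians lie to the right for the 9 genes (0.67), other progenitor genes (0.64), astroglia (0.94) and the oligodendrocyte lineage (0.66), and to the left for neurons (-0.30) and fibroblasts (-0.54).

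Markers of other cell types that can express these genes were compared between genotypes as well, and none of them passed in a genotype comparison in limma. Of 10 astroglia markers 8 were tested, 7 were higher, with a median of 0.94, and 3 passed as higher with 12 libraries counted as independent (2.79% of all genes). Their summed level was 79.1 to 102.9 FPKM in untreated control and 117.9 to 160.9 in untreated SMA libraries, and 75.6 to 95.5 and 94.9 to 158.3 with treatment. Kcnj10, an astrocyte potassium channel, was at 1.58 and 13.7 FPKM without treatment. The oligodendrocyte lineage markers, 6 tested of 10, summed to 15.2 to 22.9 FPKM in untreated control and 27.5 to 81.5 in untreated SMA libraries. With treatment they summed to 13.5 to 19.0 in control and 21.6 to 88.3 in SMA. Of the 6 tested, 4 were higher on average, and 2 passed as higher with 12 libraries counted as independent (2.79% of all genes). Olig1 was at 5.79 and 31.4 FPKM without treatment and Olig2 at 1.67 and 8.56. Mbp, the myelin protein, at 3.99 and 2.30, and Cspg4, at 1.04 and 0.694, were lower. Pdgfra, at most 0.487 FPKM, and Sox10, at most 2.10, did not pass the filter. All 12 neuron markers were lower in SMA on average, with a median of -0.30, where 7314 of all 15114 tested genes were higher. With treatment, 3 of the 12 were higher and the median was -0.22. In the averaged comparison, 2 of the 12 were lower at an unadjusted p under 0.05 in limma (6.4% of all genes). Their sums were 1076 to 1628 FPKM in untreated control and 897 to 1070 in untreated SMA libraries, and 1164 to 1717 and 1028 to 1340 with treatment. Fibroblast markers, 8 tested of 11, summed to 181 to 374 FPKM in untreated control and 137 to 216 in untreated SMA libraries, and 167 to 340 and 129 to 236 with treatment. The part of these cell types in the differences of the 9 genes was not tested. Microglia and macrophage markers summed to at most 6.67 FPKM, endothelial ones to 8.69 and skeletal muscle ones to 6.18. Other lists stood higher over the 12 libraries. Schwann cell and neural crest markers summed to 129.8 to 225.1 FPKM and cartilage markers to 53.4 to 82.3. Ependyma markers, 3 tested of 6, summed to 23.2 to 27.4 FPKM in untreated control and 34.7 to 39.2 in untreated SMA libraries. With treatment they summed to 13.6 to 25.2 in control and 29.4 to 38.4 in SMA. All 3 were higher on average, with a median of 0.64, and 1 passed as higher with 12 libraries counted as independent (2.79% of all genes). The part of ependyma in the differences of the 9 genes was not tested either.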

How the data were processed

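RNA of primary motoneuron cultures was sequenced in 12 libraries. A Nucleospin kit gave total RNA and a Lexogen mRNA-Seq kit (V2) the libraries, per the labels' protocols. The submitters' processing notes name Cufflinks 2.2.1, FastQC 0.10.1, Trim Galore 0.4.0 and the build GRCm38. The aligner's settings and the strand setting are not stated. The deposited FPKM has 39196 entries for 39174 identifiers, and the values of 19 identifiers on several lines were summed. FPKM was scaled by median-of-ratios factors and transformed to log2(scaled FPKM + 1). Genes with FPKM of at least 1 in 3 libraries were tested with limma 3.58.1 in R 4.3.3 (lmFit, eBayes with trend, two-sided), with Benjamini-Hochberg adjustment and a threshold of 0.05, in 6 comparisons. The fit of the 4 groups was tested on simulated data, drawn without any sharing between number-matched libraries. The fit of pair means was not tested in this way. Untreated and treated libraries of the same genotype and number, numbers given in the titles, deviated together from their group means (correlation over genes 0.222 to 0.574 in 6 of 6 pairs). The averaged genotype comparison therefore used 6 pair means. At the estimated depth step, 29.2% to 31.4% of low values (up to 10 reads) came out whole within 0.01 reads, so no count test was run. The 9 genes and all gene lists were chosen with earlier results of these data known. Besides the 9, the genes named are Smn1, the 5 nearest profiles, overlapping genes, defining motoneuron markers below the filter and, per list, up to 4 genes with the smallest p. Hes1, Hes5, Tnc, Cspg4, Pdgfra and Sox10 were added after their values were seen. So were the Sox1 to Nes ratio and the repeat without small RNA genes. Gene positions are those of the tables, exon counts and strands those of GENCODE M21.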

Additional observations from a re-analysis of the deposited data

How the results depend on the processing

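Groups of 3 libraries limit the precision, and the SMA libraries were the shallower ones (19.5 to 25.2 M reads, against 23.3 to 28.7 in control); whether depth bears on the calls was not tested. The test was repeated with other scalings, pseudocounts of 0.1 and 0.5, no filter, library weights, blocks, each library or pair left out and small RNA genes left out. The 9 genotype differences kept their direction except those of Nes and Vim. Averaged, Vim gave -0.074 with a common FPKM sum, -0.024 without scaling and -0.055 with quantile normalization. With single libraries or pairs left out, the difference of Nes ran from -0.13 to 0.10 untreated and from -0.13 to 0.047 averaged. That of Vim ran from -0.29 to 0.081 untreated, -0.070 to 0.32 treated and -0.12 to 0.20 averaged. Fabp7 ran from -0.72 to 0.16 for treatment in SMA and from -0.78 to 0.10 for the interaction, both turning positive without the treated SMA library 2. Without treatment, Sox3 gave 0.37 without control library 2 and Sox9 0.34 without SMA library 3. With treatment, Sox2 gave 0.32 without SMA library 3, and Fabp7 0.53 without SMA library 1 and 1.42 without SMA library 2. The number of genes called between genotypes, 1 in each comparison, was 2 untreated with a common FPKM sum and with either other pseudocount, and 2 treated with a common FPKM sum. Averaged without the filter it was 0, with 2818 genes at an unadjusted p under 0.05 in limma, and the interaction then gave 1. Library weights gave 354 untreated, with 2 of the 9 genes (Sox1 and Sox21), and 12 treated. With 12 libraries counted as independent, 668 genes and 6 of the 9 passed. Leaving out single libraries or pairs gave 1 to 6 genes untreated, 1 to 205 treated with 0 or 1 of the 9, 1 to 264 averaged with 0 to 3 of the 9, and 0 or 1 for the interaction. The highest counts of the genotype comparisons came without libraries of SMA number 2, and that of the interaction without the untreated control library 2. Blocks on the 6 pairs changed no call of a treatment effect. Across genotypes the numbers were not taken as pairs, since not every correlation exceeded 0.1. Same-numbered control and SMA libraries correlated from -0.054 to 0.31 over all treatments, and differently numbered ones from -0.28 to 0.19. The labels do not state whether a number shares anything across genotypes. A replicate block over both genotypes gave 301 genes untreated (Sox1, Sox21 and Fabp7 among them), 220 treated and 262 averaged (Sox1, Sox9 and Sox21 in both), 3 of the 9 each time. The cause of these differences was not tested.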
